A study of Rattus norvegicus with 8 samples.

Results

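S100a8, S100a9 and Mmp8 were followed in burned and unburned rat skin. They were picked by their gene identifiers, which are ENSRNOG00000011557 for S100a8, ENSRNOG00000011483 for S100a9 and ENSRNOG00000009907 for Mmp8. All 3 were among the 26404 genes of the deposited count table, and all 3 were among the 14240 genes that passed the expression filter. The skin came from the dorsal side of the hind paw of Sprague-Dawley rats of 125 to 200 g, anaesthetised with urethane at 1.5 g/kg. In the 4 burn libraries the paw had been held in saline at 60 °C for 2 min, a deep partial-thickness scald. In the 4 control libraries it had been held at the same time in saline at room temperature, on the opposite side of the animal. Both kinds of skin had also held a microdialysis probe, and the skin was cut out once the experiments had ended. The labels state neither the sex of the animals, nor how long after the scald the skin was taken, nor which animal each library came from.

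S100A8 and S100A9 are small calcium-binding proteins that pair to form calprotectin. Calprotectin fills much of the cytosol of neutrophils, is also made by monocytes and by stressed keratinocytes, binds zinc and manganese that microbes need, and acts as an alarm signal when cells release it. MMP8, neutrophil collagenase, is a zinc-dependent protease that cuts fibrillar collagen; neutrophils make it while they mature in the bone marrow and carry it in granules. Because RNA was taken from whole skin, a change in the number of cells of a type and a change in RNA per cell cannot be told apart. No other identifier of the table is paired with a symbol in the sources used here, so markers of neutrophils, macrophages, keratinocytes and other skin cells were not analysed here and the labelled tissue was not checked against them.

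In the RefSeq annotation of the later rat build GRCr8, S100a8 and S100a9 are neighbours on chromosome 2, with 0 other genes listed between them, and Mmp8 lies on chromosome 8. RefSeq promoter windows, from 250 bases before the transcript start to 50 bases from it, were found for S100a9 and Mmp8. They are shown because they are the windows found, and none was found for S100a8. Mmp8 passed the test for a change after the scald, S100a9 did not, and their ratio differed between the groups. Any link of the windows or their motifs to these results was not tested. Both are written 5′ to 3′ on the strand of the gene, in lower case, with every motif match in capitals. S100a9 is on the minus strand (GRCr8 chr2:178490573-178490872) and Mmp8 on the plus strand (GRCr8 chr8:13008640-13008939).
S100a9: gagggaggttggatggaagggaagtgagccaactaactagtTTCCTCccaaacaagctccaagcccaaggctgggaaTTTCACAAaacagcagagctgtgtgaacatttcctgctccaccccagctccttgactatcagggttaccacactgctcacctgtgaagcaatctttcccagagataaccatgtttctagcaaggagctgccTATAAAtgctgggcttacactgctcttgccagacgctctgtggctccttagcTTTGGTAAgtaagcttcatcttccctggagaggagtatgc
Mmp8: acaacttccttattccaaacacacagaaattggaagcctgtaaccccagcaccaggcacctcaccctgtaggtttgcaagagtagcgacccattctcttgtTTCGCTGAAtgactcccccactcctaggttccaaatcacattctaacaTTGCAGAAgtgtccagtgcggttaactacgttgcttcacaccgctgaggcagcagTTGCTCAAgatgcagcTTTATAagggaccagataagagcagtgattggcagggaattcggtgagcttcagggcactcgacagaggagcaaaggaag

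The windows were searched on both strands for 6 motifs. TTNCNNAA, a loose form of the site of C/EBP factors, which act in myeloid cells, occurred 2 times in each window and is in 41.3% of the 33469 promoter windows of this length. In the S100a9 window the match TTTGGTAA reads on the opposite strand and lies after the transcript start. TATAAA, the core of a TATA box, occurred once in each and is in 14.2% of all windows; in the Mmp8 window it reads on the opposite strand. GAGGAA, the core of sites of ETS factors such as PU.1, occurred once, in the S100a9 window, on the opposite strand, and is in 27.6% of windows. TTCNNNGAA, the STAT motif, occurred once, in the Mmp8 window, and is in 8.87% of windows. TGANTCA, for AP-1, and GGNNNTTCC, a loose form of the NF-kB site, matched neither window and are in 7.33% and 18.3% of windows. No match overlapped another.

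Libraries held 13693811 to 18738652 counts in burn and 17824830 to 26837925 in control. Burn replicate 3 stood apart, with 15354 genes detected against at least 17322 in each other library, so values without it are given where it matters. Replicate numbers were assigned in the order of the accessions and were not used to pair libraries, since the labels do not say which burned and control paws belonged to 1 rat. Levels are CPM, counts brought to a common library size with trimmed mean of M-values (TMM) factors, or their log2. They are not divided by gene length, so they compare libraries for 1 gene and not 1 gene with another.

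S100a8, the light chain of calprotectin, was detected in every control library and did not pass the test for a change after the scald. It stood at 78.4, 243, 11.02 and 35.6 CPM in burn replicates 1 to 4, against 64.3, 137, 38.5 and 58.8 CPM in control replicates 1 to 4. Burn replicate 2 was above every control library, burn replicates 3 and 4 were below every control library, and burn replicate 1 lay within the control range. The mean was 92.1 ± 105 CPM in burn and 74.7 ± 43.1 CPM in control (SD, n = 4 each). On the log2 scale the order of the means was the opposite, 5.71 ± 1.88 log2 CPM in burn and 6.07 ± 0.76 in control (SD, n = 4 each). The fitted log2 fold change, burn over control, was 0.30 (SE 0.80, 95% interval -1.51 to 2.12, edgeR quasi-likelihood test, Benjamini-Hochberg adjusted p = 0.812). That interval runs from 0.351-fold to 4.33-fold. Its sign turned without burn replicate 2, at -0.85 with an adjusted p of 0.344 by edgeR, and also with library totals in place of TMM factors, at -0.065.

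S100a9, the heavy chain of calprotectin, had a higher mean in burned skin but also missed the threshold. It stood at 220, 607, 34.7 and 64.7 CPM in burn replicates 1 to 4, against 75.0, 163, 50.8 and 73.5 CPM in control replicates 1 to 4. Burn replicates 1 and 2 were above every control library, burn replicate 4 was inside the control range, and burn replicate 3 was below it. The mean was 232 ± 263 CPM in burn and 90.6 ± 49.5 CPM in control (SD, n = 4 each), or 7.04 ± 1.84 and 6.36 ± 0.71 log2 CPM. The fitted log2 fold change was 1.35 (SE 0.81, 95% interval -0.48 to 3.18, edgeR adjusted p = 0.253), an interval of 0.719-fold to 9.09-fold. It was 0.23 without burn replicate 2 (edgeR adjusted p = 0.801) and 1.71 without burn replicate 3 (edgeR adjusted p = 0.0970).

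Mmp8 was scarce in unburned skin and rose in burned skin, the only call among the 3 genes. It had 140, 1702, 18 and 215 counts in burn replicates 1 to 4, against 3, 59, 6 and 34 counts in control replicates 1 to 4. These are 12.2, 113, 0.945 and 12.9 CPM in burn, against 0.117, 2.04, 0.296 and 1.22 CPM in control. Burn replicates 1, 2 and 4 were above every control library, and burn replicate 3 lay inside the control range. Counting error was wide only for the smallest values. The exact 95% Poisson interval was 0.560 to 1.49 CPM in burn replicate 3, against 0.0241 to 0.342 CPM in control replicate 1 and 1.56 to 2.64 CPM in control replicate 2.

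The mean of Mmp8 was 34.7 ± 52.3 CPM in burn and 0.919 ± 0.892 CPM in control (SD, n = 4 each), or 3.55 ± 2.76 and -0.52 ± 1.53 log2 CPM. The fitted log2 fold change was 5.20 (SE 1.42, 95% interval 1.99 to 8.41, edgeR adjusted p = 0.0322), or 36.8-fold with an interval of 3.98-fold to 340-fold. This was the 61st largest of 14240 fitted log2 fold changes, whose median was 0.06. The edgeR test called 11.9% of all genes tested higher in burn and 10% lower, and with 3 genes a single call cannot be set against those shares. The call was lost without burn replicate 1 (edgeR adjusted p = 0.0516) and without control replicate 1, 2, 3 or 4 (edgeR adjusted p = 0.0806, 0.0693, 0.0828 and 0.0821). It held without burn replicate 3 (log2 fold change 5.60, edgeR adjusted p = 0.0106) and narrowly without burn replicate 2 (3.21, edgeR adjusted p = 0.0499), and limma-voom gave 4.10 with an adjusted p of 0.202.

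**Figure D1:**
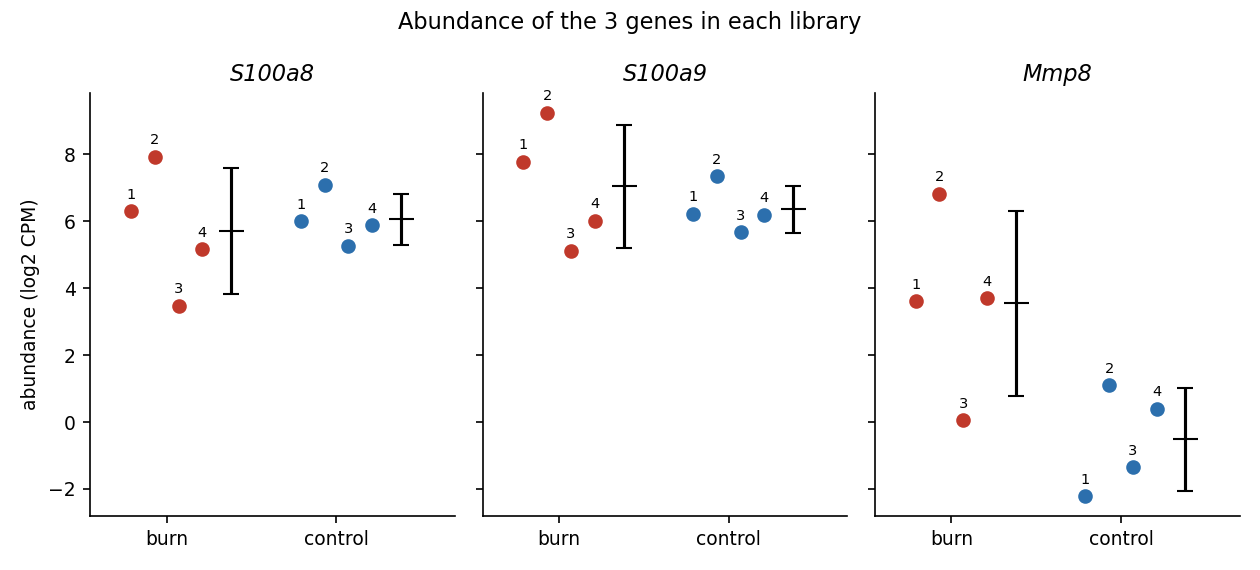
Abundance of S100a8, S100a9 and Mmp8 in log2 CPM, each library a numbered point (red, burn; blue, control), and bars for mean ± SD over the 4 libraries of a group. Burn and control overlap for each gene. Above all control libraries lie burn replicate 2 for S100a8, replicates 1 and 2 for S100a9, and replicates 1, 2 and 4 for Mmp8.

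The rise of Mmp8 and the position of the calprotectin genes were not of 1 size. Set over all genes tested, 0.421% had a higher fitted log2 fold change than Mmp8, 8.01% a higher one than S100a9 and 37.6% a higher one than S100a8. By count alone, S100a8 exceeded 47.2% to 97.4% of the genes detected in a burn library, against 76.1% to 93.6% in a control library. S100a9 exceeded 70.8% to 99.2% in burn, against 81.0% to 95.1% in control. Mmp8 exceeded 14.7% to 92.7% in burn, against 8.74% to 31.7% in control. The low burn end of each gene was burn replicate 3, whose share is taken over its 15354 detected genes, the fewest of any library. Without it the burn ranges were 74.9% to 97.4% for S100a8, 86.0% to 99.2% for S100a9 and 53.4% to 92.7% for Mmp8. These ranks are within a library and are not corrected for gene length.

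S100a8 and S100a9 kept a narrow ratio in unburned skin, and the ratio shifted towards S100a9 in burned skin. For each count of S100a8 there were 2.80, 2.50, 3.15 and 1.81 counts of S100a9 in burn replicates 1 to 4, against 1.17, 1.19, 1.32 and 1.25 in control replicates 1 to 4. Every burn library lay above every control library. The closest were burn replicate 4, with an exact 95% interval of 1.64 to 2.01, and control replicate 3, with 1.20 to 1.45. The ratio is formed within a library and needs no scaling factor. It compares counts, not molecules, since the lengths of the transcripts were not used.

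Written as the log2 ratio of S100a8 to S100a9, with 0.5 counts added to each, the mean was -1.33 ± 0.34 in burn and -0.30 ± 0.08 in control (SD, n = 4 each). The difference was -1.03 log2 units, a 2.04-fold shift towards S100a9, and was in this direction in 4 of 4 burn libraries. A two-sided exact permutation test gave p = 0.0286, the smallest that 4 against 4 libraries allow, and 0.0286 after Benjamini-Hochberg adjustment over the 2 ratios tested. Among the 14239 other genes tested, 3.45% had a ratio to S100a9 that was likewise lower in every burn library than in every control library. The groups stayed apart in all 8 refits that left out 1 library. The difference was -0.92 without burn replicate 3 and -1.19 without burn replicate 4. With 3 against 4 libraries the test cannot go below 0.0571.

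**Figure D2:**
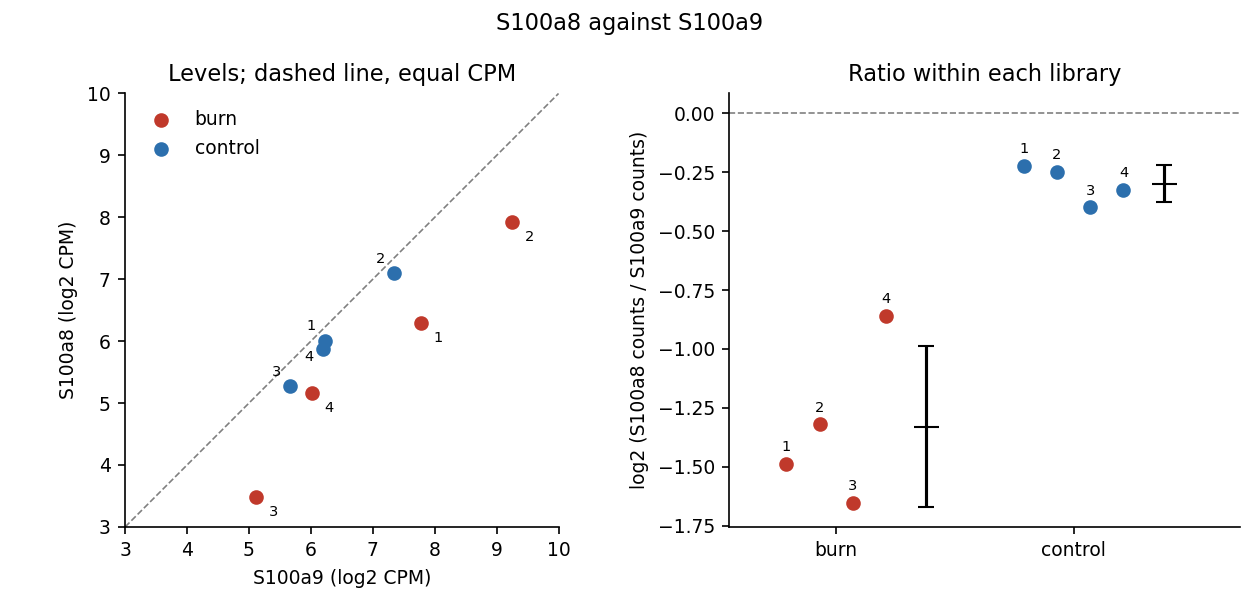
Left, S100a8 against S100a9 in log2 CPM, each library a numbered point (red, burn; blue, control), the dashed line marking equal CPM. Right, the log2 ratio of S100a8 counts to S100a9 counts in each library, with bars for mean ± SD over 4 libraries, where the burn libraries lie at -1.65 to -0.86 and the control libraries at -0.40 to -0.22.

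Although their ratio differed between the groups, both calprotectin genes were high and low in the same libraries within a group. The order from highest to lowest log2 CPM was replicate 2, 1, 4, 3 for both genes in burn, and it was also 2, 1, 4, 3 for both genes in control. Whether libraries of the same number came from 1 rat is unknown, and all tests here take the libraries as unpaired. Across the burn libraries S100a8 spanned 22.1-fold and S100a9 17.5-fold in CPM, while their ratio spanned 1.73-fold. Across the control libraries S100a8 spanned 3.56-fold and S100a9 3.21-fold, while their ratio spanned 1.13-fold. The spans of the levels rested on the end libraries. In burn they were 6.83-fold for S100a8 and 9.39-fold for S100a9 without replicate 3, and 7.11-fold and 6.33-fold without replicate 2. In control they were 1.67-fold and 1.48-fold without replicate 2, and 2.33-fold and 2.22-fold without replicate 3. Without the same libraries the ratio spanned 1.55-fold and 1.73-fold in burn and 1.13-fold and 1.07-fold in control.

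Likeness of profiles was measured as the root mean square difference of log2 CPM after each gene was centred within its group. Profiles were not scaled to a common SD, so the distance from a gene to the median gene follows largely from its own spread. Over the 4 burn libraries S100a8 and S100a9 differed by 0.29 log2 units, where the median gene differed from S100a8 by 1.62, and S100a9 ranked 19th of 14239 genes in nearness to S100a8. Over the 4 control libraries they differed by 0.07 log2 units, where the median gene differed from S100a8 by 0.69. In control skin each was the nearest of all 14239 genes to the other. These are descriptions over few libraries, which share depth and composition, and carry no test.

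Centred on the mean of all 8 libraries instead, so that any difference between burn and control counts too, S100a9 ranked 44th in nearness to S100a8, at 0.56 log2 units, and S100a8 ranked 30th in nearness to S100a9. The genes nearest to the average of both calprotectin profiles on that scale were ENSRNOG00000023428, at 0.32 log2 units, and ENSRNOG00000028016, at 0.37. Neither is paired with a symbol in the sources used here. ENSRNOG00000023428 averaged 1.95 ± 1.54 log2 CPM in burn and 1.85 ± 0.39 in control (SD, n = 4 each), with an edgeR adjusted p of 0.532. ENSRNOG00000028016 averaged 1.74 ± 1.52 log2 CPM in burn and 1.40 ± 0.51 in control (SD, n = 4 each), with an edgeR adjusted p of 0.395.

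All 3 genes varied more between libraries than most genes of like mean abundance, where the mean was taken over all 8 libraries. The SD of log2 CPM of S100a8 was 1.88 among burn and 0.76 among control libraries, where the 1989 genes within 0.5 log2 CPM of its mean had medians of 0.37 and 0.17. It exceeded 98.9% of those genes in burn and 99.4% in control. S100a9 exceeded 97.8% of 1234 such genes in burn and 99.4% in control, and Mmp8 exceeded 98.2% of 1287 in burn and 98.8% in control. For Mmp8 the mean over all libraries lies between 3.55 log2 CPM in burn and -0.52 in control. Its control share is therefore set against genes more abundant than Mmp8 was there, and counting error at its few control counts adds to its spread. For S100a8 and S100a9 the highest control value was in replicate 2 and the lowest in replicate 3.

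Mmp8 rose relative to S100a9 as well. For every 100 counts of S100a9 there were 5.53, 18.6, 2.72 and 20.0 counts of Mmp8 in burn replicates 1 to 4, against 0.156, 1.25, 0.584 and 1.66 in control replicates 1 to 4. No burn library overlapped a control library, including burn replicate 3, whose Mmp8 level alone had been inside the control range. The exact 95% intervals of the closest pair, burn replicate 3 and control replicate 4, were 1.60 to 4.34 and 1.14 to 2.32, and so overlapped by counting error.

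The log2 ratio of Mmp8 to S100a9 averaged -3.52 ± 1.38 in burn and -7.15 ± 1.43 in control (SD, n = 4 each). The difference was 3.63 log2 units, or 12.4-fold, in the same direction in 4 of 4 burn libraries (two-sided exact permutation test, p = 0.0286, and 0.0286 after adjustment over the 2 ratios). It was 2.98 log2 units without control replicate 1, which held 3 counts of Mmp8, and 4.18 without burn replicate 3. Of the 14239 genes other than S100a9, 0.906% had a ratio to S100a9 that was higher in every burn library than in every control library. The ratio shares the Mmp8 counts of the call above and is not a separate measurement of them. Unlike the calprotectin pair, Mmp8 did not keep a narrow ratio to S100a9 within a group, spanning 7.17-fold in burn and 9.24-fold in control on the scale with 0.5 counts added. These spans were 3.61-fold in burn without replicate 3 and 2.66-fold in control without replicate 1. Its order in burn was replicate 2, 4, 1, 3, with replicates 1 and 4 at 12.2 and 12.9 CPM. In control it was 2, 4, 3, 1, with replicate 1 at 3 counts. Centred within its group over all 8 libraries, the Mmp8 profile differed from that of S100a8 by 0.98 log2 units. It differed from that of S100a9 by 1.09, and the median gene differed from Mmp8 by 1.93. That median follows largely from the spread of Mmp8 itself, since profiles were not scaled to a common SD. In nearness to Mmp8, S100a8 ranked 59th and S100a9 148th of 14239 genes. At the same distances, Mmp8 ranked 2402nd in nearness to S100a8 and 4062nd in nearness to S100a9. Over the burn libraries alone Mmp8 ranked 993rd from S100a8 and 1886th from S100a9, and over the control libraries 13349th and 13436th. These ranks mix the pattern between libraries with the size of the spread. In control the SD of log2 CPM was 1.53 for Mmp8, against 0.76 for S100a8 and 0.71 for S100a9. The control ranks therefore cannot show whether Mmp8 followed calprotectin there, which was not tested.

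**Figure D3:**
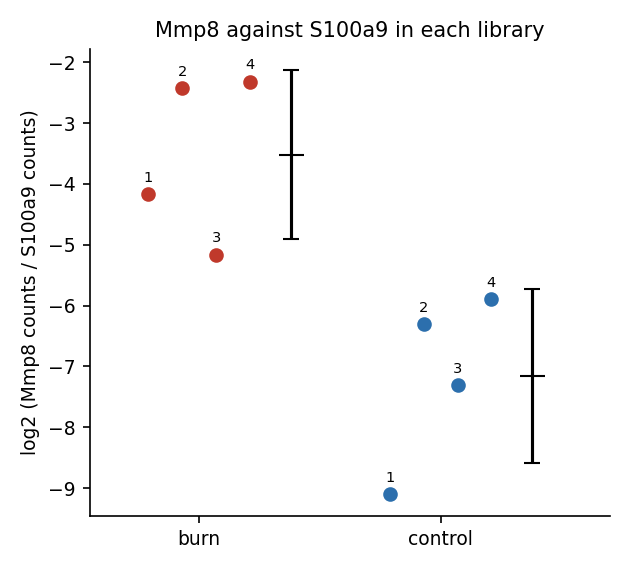
Log2 ratio of Mmp8 counts to S100a9 counts in each library, each library a numbered point (red, burn; blue, control), with bars for mean ± SD over 4 libraries. The burn libraries lie at -5.16 to -2.32 and the control libraries at -9.10 to -5.90.

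A single burn library weighed heavily on the CPM means. Burn replicate 2 held the highest level of each gene, 243 CPM of S100a8, 607 CPM of S100a9 and 113 CPM of Mmp8, and burn replicate 3 held the lowest, 11.02, 34.7 and 0.945 CPM. The refits without each library show this for the 3 genes side by side. The fitted log2 fold change of S100a8 ran from -0.85 to 0.76 over these refits, that of S100a9 from 0.23 to 1.79 and that of Mmp8 from 3.21 to 5.94. For each gene the lowest value came without burn replicate 2 and the highest without control replicate 2. Neither calprotectin gene passed the threshold in any of them.

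**Figure D4:**
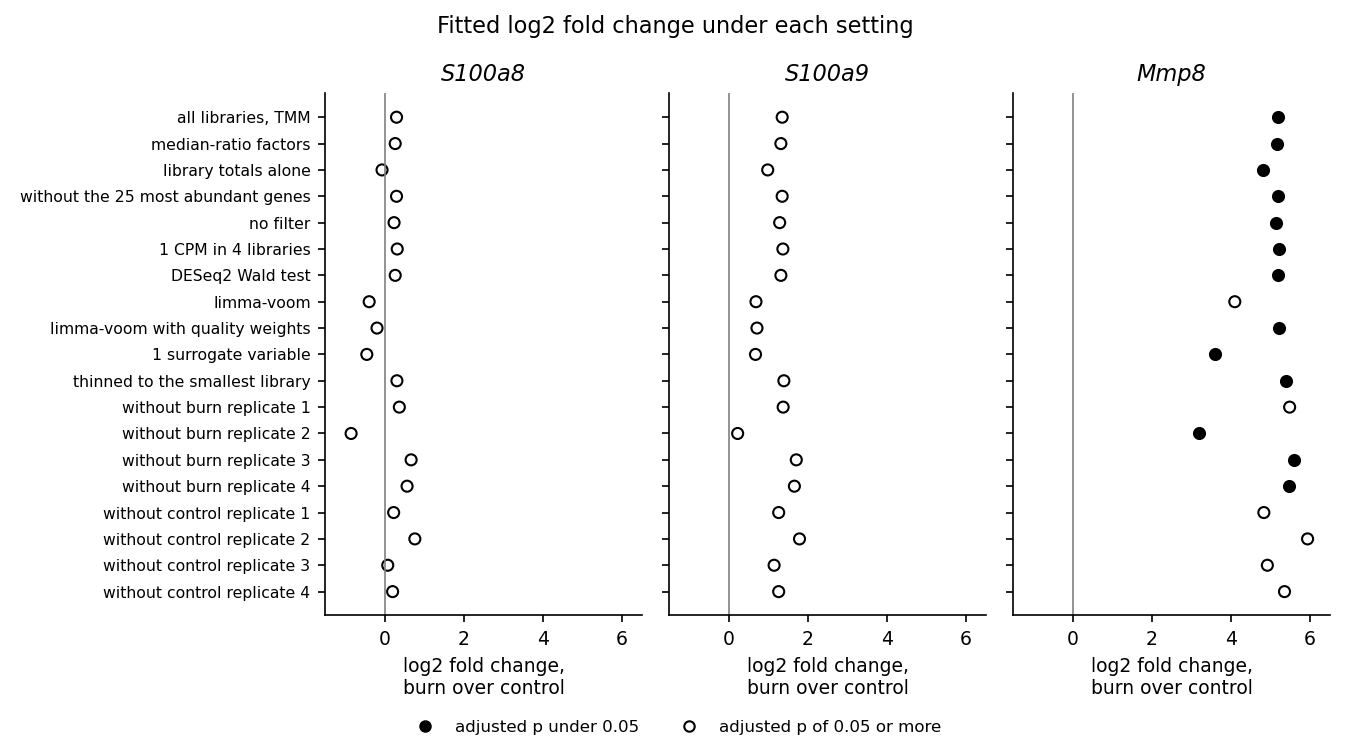
Fitted log2 fold change, burn over control, of S100a8, S100a9 and Mmp8 with all libraries and TMM factors at the top and under each other setting below, filled where the adjusted p was under 0.05. S100a8 lies on both sides of 0, S100a9 stays positive and open throughout, and Mmp8 stays above 3 and is filled in the top row and in 12 of the other 18.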

How the data were processed

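Poly(A)-enriched RNA from 8 skin samples, 4 burn and 4 control, was sequenced, and each library was grouped by its treatment label. The deposited values are whole-number counts per Ensembl gene, not normalised, with no pooling. The submitters' processing notes name TopHat2 2.0.9, HTSeq 0.5.4p3, edgeR, R 3.0.1, limma and the build Rnor_5.0, without roles. Strand setting and annotation release are not stated, so reads of overlapping or antisense genes could not be separated. Libraries of a group were not repeat runs of 1 library, as their counts differed by 28.3 to 751 times the chi-square of sampling noise. Whether they are different rats is not stated, so p-values cover only the spread between these samples.

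Burn was tested against control over the whole table with edgeR 4.0.16 in R 4.3.3 (quasi-likelihood test, robust dispersions, TMM factors, default expression filter, Benjamini-Hochberg adjustment over all 14240 genes tested, threshold 0.05, two-sided). The SE is the size of the log2 fold change divided by the square root of F. Log2 CPM uses a prior count of 2. Ratios were tested by exact permutation over 70 divisions of the libraries. That test treats the libraries as exchangeable, which paws of 1 rat are not. Intervals for single libraries cover counting error only. Alternatives used DESeq2 1.42.0, limma 3.58.1 and sva 3.50.0.

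The RefSeq table of GRCr8 holds 47357 genes, 0 with an Ensembl identifier. The preset lists of S100 proteins, receptors, granule proteins, collagenases and cell markers were therefore not analysed here, and the rule for named genes gave the 3 genes and the 2 identifiers nearest to the calprotectin profile. The genes, lists and tests were chosen with earlier results of these data known, and likeness within a group was added after these values were seen.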

Additional observations from a re-analysis of the deposited data

Results flagged for a closer look

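Groups of 4 libraries were screened for 1 value far from the other 3, over 16 sets of levels and ratios of the 3 genes, and 1 was picked. Chance picks about 1 in 20 where values are normally distributed, so 1 pick among 16 is near that rate. The levels entered both as CPM and as log2 CPM, so the sets were not independent. Mmp8 stood at 113 CPM in burn replicate 2, where the other burn libraries had 0.945 to 12.9 CPM. On the log2 scale the same library was not picked.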

How the results depend on the processing

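No paired analysis was possible because the labels give no replicate or animal numbers that the groups share. S100a9 kept its direction and stayed short of the threshold under all 19 alternatives, at log2 fold changes of 0.23 to 1.79. S100a8 never passed the threshold, and its sign turned under 5 of 19, to -0.065 with library totals, -0.39 with limma-voom, -0.19 with limma-voom and quality weights, -0.45 with 1 surrogate variable and -0.85 without burn replicate 2; it ran from -0.85 to 0.76 when 1 library was left out. With library totals the median over all genes tested was -0.15, against 0.06 with TMM factors. The rise of Mmp8 kept its direction under all 19, at 3.21 to 5.94 with 1 library left out, and lost its call under 7 of them: limma-voom at 4.10, an adjusted p of 0.01 at 5.20, and 5 of the 8 refits without 1 library. Over the alternatives its adjusted p ran from 0.000714 by the DESeq2 Wald test to 0.202 by limma-voom. With 1 library left out, the log2 ratio of S100a8 to S100a9 differed by -1.19 to -0.92 and that of Mmp8 to S100a9 by 2.98 to 4.18, at the smallest p that 3 against 4 libraries allow; other pseudocounts and thinning to 13693811 counts changed no call of either. The number of genes called was 3115, but 679 at an adjusted p of 0.01, stricter by construction, 5585 with 1 surrogate variable, and 1219 to 4243 with 1 library left out. Except where stated, the cause was not tested.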
